A study of Mus musculus with 8 samples.

Results

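The genes described here encode laminin-332 and the hemidesmosome, the junction that fixes epithelial cells to the basement membrane. They were chosen by name, as Lama3, Lamb3, Itga3, Itga6, Itgb1, Itgb4, Col17a1, Dst and Plec. Earlier results of these data were known when the genes were chosen. All 9 were listed in both deposited tables, out of 32693 genes with a value in either table. RNA had been sequenced from hair matrix keratinocytes, proliferating follicle cells that produce the hair, after a sort by flow cytometry from mouse skin at postnatal day 4.5. Each of 4 groups had 2 libraries. Double knockout (DKO) mice carried deletions of Tet2 and Tet3 through Krt14-Cre and had received 50 µg of 5-aza under the skin at postnatal day 2.5, or were untreated. Wild type (WT) mice with 5-aza at the same dose and day were set against the DKO mice given 5-aza, and untreated WT mice against the untreated DKO mice. 5-aza (5-azacytidine or its deoxy form; the labels do not say which) inhibits DNA methyltransferases, whereas Tet enzymes oxidise 5-methylcytosine. Krt14-Cre is driven by the promoter of a basal keratin, so the deletion is directed to keratinocytes. Whether WT mice carried Cre or floxed alleles, which markers defined the sort, whether a protein of the 9 genes was among them, and whether libraries came from separate animals are not given in the sources used here. The p-values therefore measure the spread between these libraries, which may be technical.

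Hemidesmosomes hold basal keratinocytes, including those of the outer layer of the follicle, on the basement membrane. Laminin-332, a trimer with the chains encoded by Lama3 and Lamb3, is the extracellular ligand. Its receptors are the integrins α6β4 and α3β1, of which α6β4 builds the hemidesmosome with collagen XVII, while α3β1 works in focal contacts. Inside the cell, plectin and the epithelial isoform of dystonin tie the receptors to keratin filaments. Loss of most of these proteins causes blistering of human skin, and loss of collagen XVII or integrin β1 from mouse keratinocytes disturbs hair follicles.

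Since 5-aza and Tet enzymes both act on methylation at CG dinucleotides, the sequences before start sites are shown with each CG in capitals, for all 5 of the genes that had one. They are from RefSeq on GRCm38.p6 and are read 5′ to 3′ on the strand of the gene. Each runs from 250 bases before a RefSeq start to that start, or to the first exon of GENCODE M21 where one begins earlier, as for Lamb3, Col17a1 and the upstream start of Itga3.
Lamb3, plus strand, chr1:193301744-193301992: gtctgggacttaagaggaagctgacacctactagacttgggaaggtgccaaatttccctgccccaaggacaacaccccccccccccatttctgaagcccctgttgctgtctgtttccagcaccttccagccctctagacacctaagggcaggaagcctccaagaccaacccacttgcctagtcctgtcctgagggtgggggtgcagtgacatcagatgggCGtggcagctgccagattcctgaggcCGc
Col17a1, minus strand, chr19:47692095-47692292: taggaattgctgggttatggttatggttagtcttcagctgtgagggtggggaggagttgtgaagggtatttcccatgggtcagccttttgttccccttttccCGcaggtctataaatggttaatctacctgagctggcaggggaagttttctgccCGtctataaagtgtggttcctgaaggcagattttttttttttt
Dst, upstream start, plus strand, chr1:34011345-34011594: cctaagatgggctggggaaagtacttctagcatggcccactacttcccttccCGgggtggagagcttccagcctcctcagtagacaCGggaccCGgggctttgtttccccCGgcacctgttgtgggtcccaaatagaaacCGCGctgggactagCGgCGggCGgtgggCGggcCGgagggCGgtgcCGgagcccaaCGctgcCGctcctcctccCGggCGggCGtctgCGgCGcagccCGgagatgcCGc
Dst, downstream start, plus strand, chr1:34160010-34160259: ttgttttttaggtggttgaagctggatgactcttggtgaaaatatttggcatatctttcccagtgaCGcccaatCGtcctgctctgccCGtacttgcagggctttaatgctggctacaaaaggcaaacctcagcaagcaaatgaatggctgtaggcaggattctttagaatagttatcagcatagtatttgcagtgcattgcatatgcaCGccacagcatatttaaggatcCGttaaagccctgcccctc
Itga3, upstream start, minus strand, chr11:95076802-95076964: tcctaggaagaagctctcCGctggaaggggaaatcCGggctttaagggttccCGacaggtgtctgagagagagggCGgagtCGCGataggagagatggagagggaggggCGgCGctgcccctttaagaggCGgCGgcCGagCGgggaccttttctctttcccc
Itga3, downstream start, minus strand, chr11:95069199-95069448: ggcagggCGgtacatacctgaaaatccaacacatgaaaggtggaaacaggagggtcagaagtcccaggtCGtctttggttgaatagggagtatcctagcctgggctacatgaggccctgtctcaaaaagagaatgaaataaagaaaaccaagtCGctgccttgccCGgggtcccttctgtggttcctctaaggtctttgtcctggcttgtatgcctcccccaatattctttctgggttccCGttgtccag
Itgb1, plus strand, chr8:128685404-128685653: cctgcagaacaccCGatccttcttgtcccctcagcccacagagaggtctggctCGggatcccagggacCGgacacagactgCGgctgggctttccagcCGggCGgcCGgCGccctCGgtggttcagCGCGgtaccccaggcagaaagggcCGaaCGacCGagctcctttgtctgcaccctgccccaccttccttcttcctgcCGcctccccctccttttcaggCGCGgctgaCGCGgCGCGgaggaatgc
Lamb3 holds 2 CG in these 249 bases, Col17a1 2 in 198 bases and Itgb1 21 in 250 bases. The upstream start of Dst has 22 CG in 250 bases and its downstream start 5 in 250 bases, and the upstream start of Itga3 has 12 in 163 bases and its downstream start 5 in 250 bases. Whether these CG counts go with the genotype differences given further on was not tested. RefSeq promoter windows of 300 bases, from 250 before to 50 after a start, were matched for 5 of the 9 genes, with 8 windows in all. The 2 Lamb3 windows held 2 and 5 CG and the Col17a1 window 5, against a median of 7 over 32817 windows. The Itgb1 window held 27, the Itga3 windows 5 and 24, and those of Dst, the gene of dystonin, 31 and 6. A CG is present in 94.6% of all windows. The motif TGANTCA, which reads the same on both strands, occurred in 1 Itga3 window and is present in 7.81% of all windows. TATAAA, searched on both strands, matched 2 times in the Col17a1 window and is present in 13.6% of all windows. No methylation values were analysed here, and these counts are descriptions of sequence alone.

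Library totals were 39493929 to 58353167 reads in the 5-aza libraries and 19528602 to 22837436 in the untreated libraries, of which genes of the tables held 38.4% to 42.4% and 55.8% to 62.0%. Values are FPKM, reads scaled by gene length and by the total of the library. The 9 genes had between 302 and 43961 reads per library. Tet3 was at 6.54 and 5.99 FPKM in DKO 5-aza libraries against 10.4 and 11.5 FPKM in WT 5-aza libraries, and at 6.92 and 7.31 FPKM in untreated DKO against 11.8 and 11.4 FPKM in untreated WT. Tet2 was at 1.58 and 1.56 FPKM in DKO 5-aza against 1.81 and 2.00 FPKM in WT 5-aza libraries, and at 2.72 and 2.55 FPKM in untreated DKO against 3.23 and 3.28 FPKM in untreated WT. These values cover whole genes, and the deleted exons are not given in the sources used here. Of 8 markers of matrix and shaft, 7 were measured in every library. Summed per union exon length, fibroblast markers such as Col1a1 reached 572 to 1602 FPKM in untreated libraries, above the 137 to 237 FPKM of the matrix and shaft markers. After 5-aza they were at 86.9 to 178 FPKM. In bulk libraries, fewer cells of a type and less RNA per cell cannot be told apart.

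The level of the genes relative to each other depends on the length used. The deposited length of 8 of the 9 genes equals the exon records of all annotated transcripts added together, so an exon present in several transcripts is counted several times. For Plec, which has 22 annotated transcripts, it is 212472 bases against 18113 bases of exon counted once, 11.7 times as long. The ratio was 5.77 for Itgb4, 3.86 for Dst, 2.84 for Itga3 and 2.49 for Lamb3, and 1.49 to 2.01 for Lama3, Itga6, Itgb1 and Col17a1. Over all genes of the tables the median ratio was 1.19 for the 5-aza table and 1.17 for the untreated table. Comparisons between libraries keep the same length and are given on deposited FPKM. Comparisons between genes are given as FPKM per union exon length, in which each exon base counts once.

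On union exon length, the integrin β1 gene Itgb1, the collagen XVII gene Col17a1 and the plectin gene Plec were the 3 highest in every group. In DKO 5-aza libraries Plec averaged 43.6 ± 2.80 FPKM (SD, n = 2), above Col17a1 at 25.1 ± 0.562 FPKM and Itgb1 at 24.2 ± 1.14 FPKM, whose ranges overlapped. In WT 5-aza libraries Plec averaged 32.5 ± 1.40 FPKM, above Itgb1 at 23.1 ± 4.599 FPKM and Col17a1 at 19.4 ± 3.02 FPKM, and the ranges of these 2 also overlapped. Untreated DKO libraries had 41.9 ± 7.37 FPKM of Plec and 41.8 ± 1.94 FPKM of Itgb1 with overlapping ranges, and 35.1 ± 0.856 FPKM of Col17a1 apart from both. In untreated WT libraries Itgb1 averaged 47.3 ± 9.88 FPKM and Plec 38.1 ± 4.46 FPKM, again overlapping, with Col17a1 at 32.6 ± 3.05 FPKM. Itgb4, Itga3 and Itga6 followed in every group, at means of 6.93 to 20.2 FPKM per union exon length, with Itgb4 and Itga3 overlapping in untreated WT libraries and apart elsewhere.

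The laminin chains and Dst were the 3 lowest in every group. Lama3 averaged 7.48 ± 0.334 FPKM per union exon length in DKO 5-aza, 4.62 ± 0.0861 in WT 5-aza, 7.39 ± 1.12 in untreated DKO and 5.15 ± 0.889 in untreated WT libraries. Lamb3 averaged 2.80 ± 0.183 FPKM in DKO 5-aza, 1.22 ± 0.315 in WT 5-aza, 5.46 ± 1.496 in untreated DKO and 3.52 ± 0.449 in untreated WT libraries, and was the lowest of the 9 in all groups but untreated DKO. Dst averaged 4.07 ± 0.665 FPKM per union exon length in DKO 5-aza, 2.92 ± 0.830 in WT 5-aza, 5.38 ± 0.0864 in untreated DKO and 5.86 ± 0.386 in untreated WT libraries. It overlapped Lamb3 in untreated DKO libraries and Lama3 in untreated WT libraries, and stood apart from both chains after 5-aza.

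**Figure D1:**
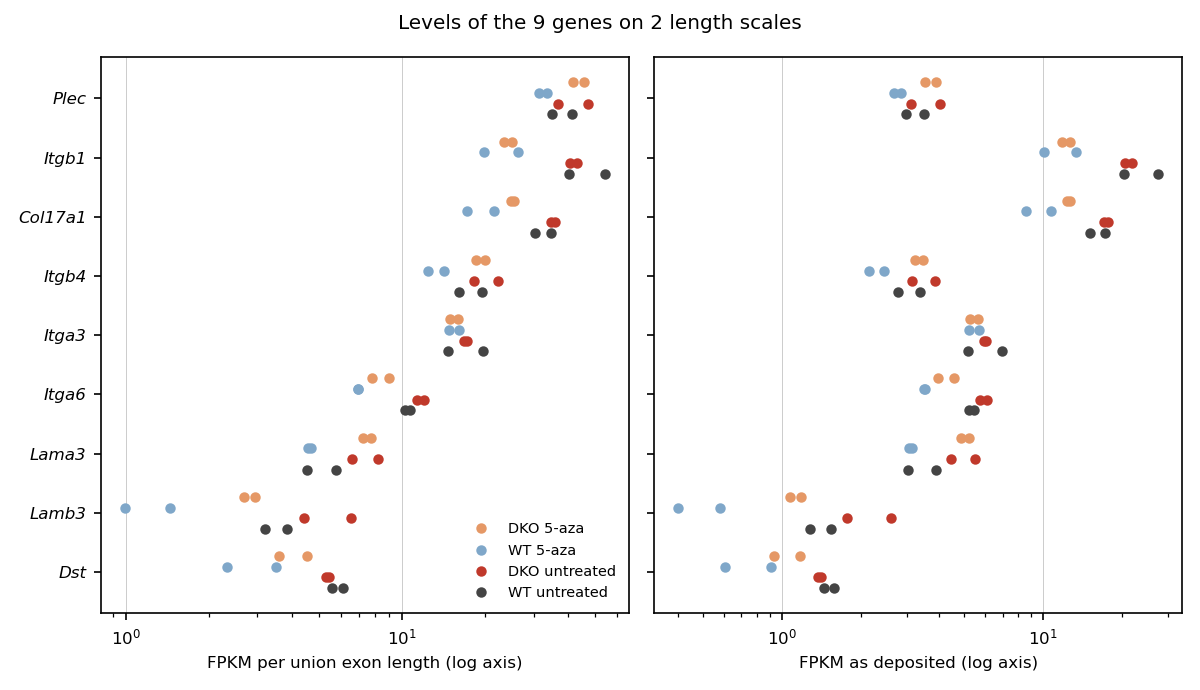
Level of the 9 genes in each library as FPKM per union exon length (left, log axis) and as deposited FPKM (right, log axis), with 1 point per library and colours for the 4 groups. Plec moves from a mean of 3.71 deposited FPKM to 43.6 FPKM per union exon length in DKO 5-aza libraries, while the order of libraries within each gene is kept.

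After 5-aza, the laminin genes Lama3 and Lamb3, integrin β4, plectin and collagen XVII were higher in DKO than in WT libraries, by 1.30-fold to 2.30-fold. The libraries of the genotypes did not overlap in these genes. The cell type in which they differed cannot be told from bulk libraries, which also held markers of other cell types. The integrins α3 and β1 did not separate by genotype. None of these differences passed the adjusted threshold of 0.05 over all 16856 genes tested (limma), while the authors' deposited table, which uses a count model, placed Lama3, Lamb3 and Itgb4 past that threshold. The comparison asks how DKO and WT cells differ when both have been given 5-aza.

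Of the ligand, Lama3 (ENSMUSG00000024421, GRCm38 chromosome 18, 12333819 to 12583013, plus strand) encodes the α3 chain, which binds the integrins. It was at 5.19 and 4.87 FPKM in DKO 5-aza libraries against 3.07 and 3.15 FPKM in WT 5-aza libraries. Both DKO libraries lay above both WT libraries, and the gap was several times the distance between libraries of a genotype. The means were 5.03 ± 0.225 and 3.11 ± 0.0578 FPKM (SD, n = 2 each), 1.62-fold higher in DKO. On the log2(FPKM + 1) scale the difference was 0.55 ± 0.07 (SE; limma, adjusted p = 0.318), which ranked 41 by p among all genes tested. The log2 fold change of Lama3 in the authors' deposited table, turned to DKO over WT, was 0.63 with an adjusted p of 6.14e-05.

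Lamb3 (ENSMUSG00000026639, chromosome 1, 193207699 to 193343878, plus strand) encodes the β3 chain of the same trimer. It was at 1.07 and 1.18 FPKM in DKO 5-aza libraries against 0.580 and 0.401 FPKM in WT 5-aza libraries. The 2 WT libraries were the lowest values of Lamb3 in the study. DKO averaged 1.13 ± 0.0735 FPKM and WT 0.491 ± 0.127 FPKM, 2.30-fold higher in DKO, the largest ratio among the 9 genes. Its difference was 0.52 ± 0.08 on the log2(FPKM + 1) scale (SE; limma, adjusted p = 0.344). The added 1 shrinks a gene of such low FPKM, and the difference of Lamb3 was 0.78 on union exon length, 1.07 with 0.1 added instead of 1, and 1.14 in voom on reads recovered from FPKM, without passing the adjusted threshold in any of them. Its log2 fold change in the authors' deposited table was 1.14, with an adjusted p of 0.000103.

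Among the receptors, Itgb4 (ENSMUSG00000020758, chromosome 11, 115974709 to 116008412, plus strand) encodes integrin β4, the subunit whose long cytoplasmic tail nucleates the hemidesmosome. It was at 3.48 and 3.22 FPKM in DKO 5-aza libraries against 2.47 and 2.15 FPKM in WT 5-aza libraries, without overlap. The means of 3.35 ± 0.180 and 2.31 ± 0.223 FPKM differed 1.45-fold, and the log2(FPKM + 1) difference was 0.39 ± 0.08 (SE; limma, adjusted p = 0.393). The authors' deposited table gave Itgb4 a log2 fold change of 0.47 and an adjusted p of 0.0128. Its partner Itga6 (ENSMUSG00000027111, chromosome 2, 71745616 to 71858416, plus strand), the α6 subunit, was at 4.57 and 3.95 FPKM in DKO against 3.52 and 3.51 FPKM in WT. The libraries of Itga6 did not overlap either, but the difference of 0.22 ± 0.08 (SE) was smaller than that of Itgb4 (limma, adjusted p = 0.570).

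The other laminin receptor, α3β1, did not separate. Itga3 (ENSMUSG00000001507, chromosome 11, 95044474 to 95076801, minus strand) was at 5.63 and 5.25 FPKM in DKO 5-aza libraries and at 5.69 and 5.22 FPKM in WT 5-aza libraries, nearly the same pair of values. Its log2(FPKM + 1) difference was -0.0035 ± 0.08 (SE; limma, adjusted p = 0.995). Itgb1 (ENSMUSG00000025809, chromosome 8, 128685654 to 128733200, plus strand), the β1 subunit that pairs with many α subunits in most cell types, was at 11.9 and 12.7 FPKM in DKO and 13.4 and 10.1 FPKM in WT. The WT libraries of Itgb1 enclosed the DKO libraries, and the difference was 0.07 ± 0.15 (SE; limma, adjusted p = 0.926). Its sign turned, to -0.013, when FPKM were scaled to reads in listed genes.

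Collagen XVII, the transmembrane collagen of the hemidesmosome, is encoded by Col17a1 (ENSMUSG00000025064, chromosome 19, 47646344 to 47692094, minus strand). It was at 12.7 and 12.3 FPKM in DKO 5-aza libraries against 10.7 and 8.59 FPKM in WT 5-aza libraries. DKO lay above WT in both libraries, although the WT libraries differed by more between themselves than the DKO libraries did. The means of 12.5 ± 0.280 and 9.65 ± 1.504 FPKM differed 1.30-fold, and the log2(FPKM + 1) difference was 0.35 ± 0.12 (SE; limma, adjusted p = 0.521). For Col17a1 the authors' deposited table has a log2 fold change of 0.31 with an adjusted p of 0.785.

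Of the cytoplasmic linkers, Plec (ENSMUSG00000022565, chromosome 15, 76170974 to 76232574, minus strand) encodes plectin, which binds integrin β4 and keratin filaments. It was at 3.88 and 3.55 FPKM in DKO 5-aza libraries against 2.85 and 2.68 FPKM in WT 5-aza libraries, with no overlap. The means of 3.71 ± 0.239 and 2.77 ± 0.120 FPKM differed 1.34-fold, with a log2(FPKM + 1) difference of 0.32 ± 0.07 (SE; limma, adjusted p = 0.408). Plec had a log2 fold change of 0.36 and an adjusted p of 0.0586 in the authors' deposited table. Dst (ENSMUSG00000026131, chromosome 1, 33908225 to 34308661, plus strand) encodes dystonin, whose epithelial isoform is a hemidesmosomal linker and whose other isoforms serve muscle and nerve. These isoforms are not separated in a value per gene. Dst was at 0.932 and 1.18 FPKM in DKO against 0.910 and 0.606 FPKM in WT, where the higher WT library came close to the lower DKO library. The difference was 0.23 ± 0.12 (SE; limma, adjusted p = 0.660).

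**Figure D2:**
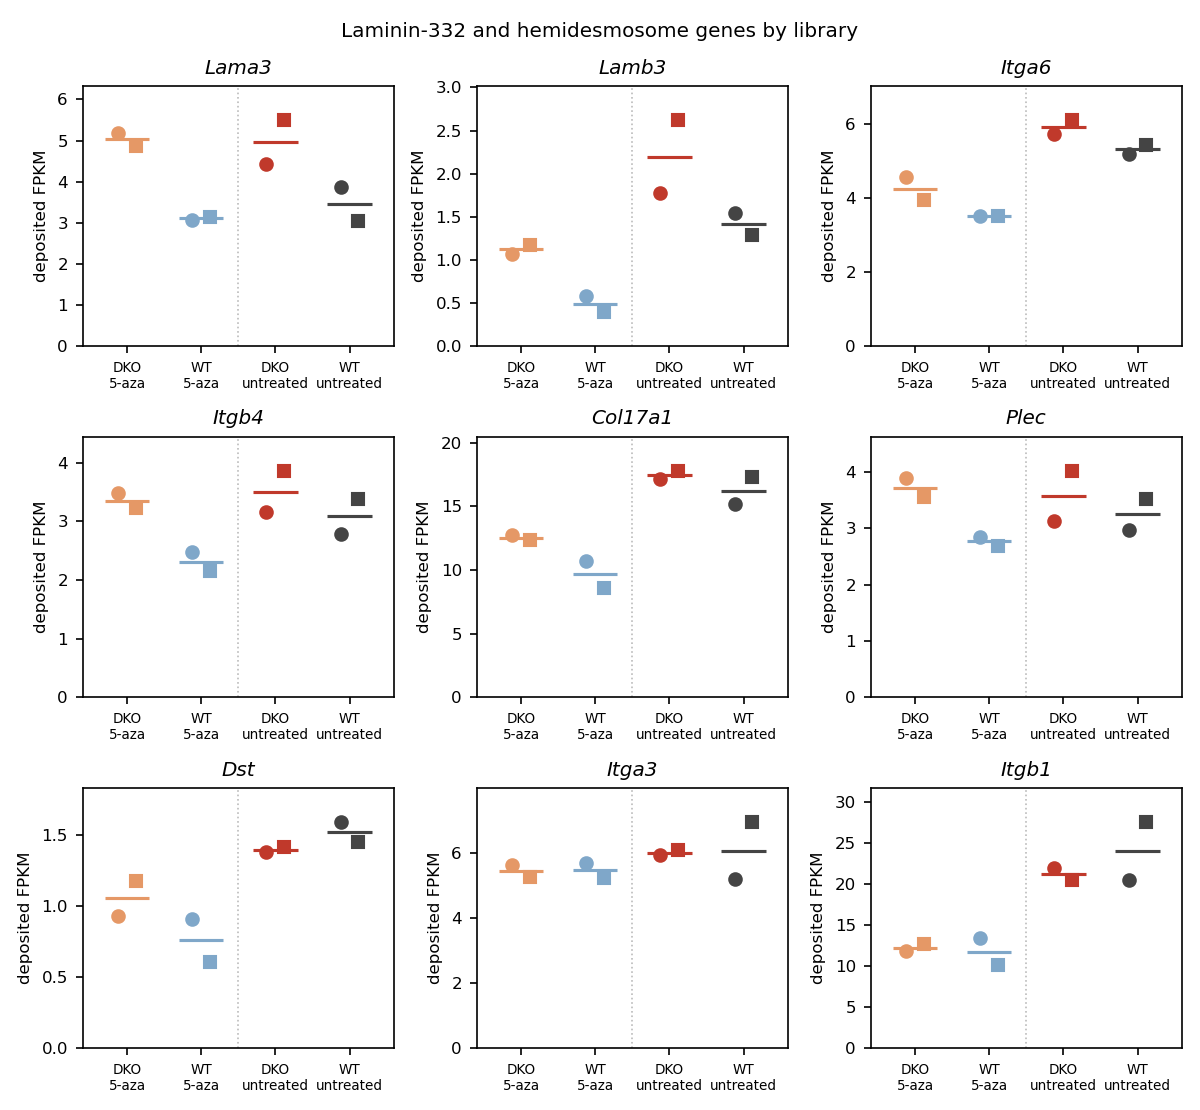
Deposited FPKM of the 9 genes in each library, with circles for replicate 1, squares for replicate 2 and a line at the mean of each group, DKO and WT after 5-aza on the left of each panel and untreated on the right. After 5-aza both DKO points of Lama3 lie at 4.87 to 5.19 FPKM and both WT points at 3.07 to 3.15 FPKM, while those of Itga3 and Itgb1 overlap.

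In all, both DKO 5-aza libraries lay above both WT 5-aza libraries in 7 of the 9 genes, where 28% of the 16856 genes tested did so, and below in 0, against 11.6%. An unadjusted p under 0.05 with DKO higher was found for 5 of the 9, Lama3, Lamb3, Itgb4, Plec and Col17a1, against 6.64% of all genes. No gene of the 9 or of the 16856 passed the adjusted threshold (0%; limma). Lama3, Lamb3 and Itgb4, 3 of the 9, were higher in DKO at an adjusted p under 0.05 in the authors' deposited table, against 0.547% of its genes. The median difference of the 9 was 0.32 on the log2(FPKM + 1) scale, beside 0.03 over all genes tested. The count of 5 became 3 without WT 5-aza replicate 2 and 3 without DKO 5-aza replicate 1. Among all genes with an unadjusted p under 0.05, 1120 were higher and 387 lower in DKO, a split that was 741 and 707 with FPKM scaled to reads in listed genes, where the median of the 9 was 0.25. With 2 libraries against 2, an exact permutation test of a single gene cannot go below p = 0.333.

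Basal and outer root sheath markers were also higher in DKO after 5-aza, all 9 of them in both libraries. Their summed level per union exon length was 841 and 943 FPKM in DKO 5-aza libraries against 564 and 483 FPKM in WT 5-aza libraries, and none of the 9 was at 0. Matrix and shaft markers summed to 230 and 228 FPKM in DKO and to 183 and 188 FPKM in WT. Fibroblast markers, of which 4 of 7 had a positive difference, summed to 123 and 173 FPKM in DKO and 178 and 86.9 FPKM in WT. Melanocyte markers, all 6 with a positive difference, summed to 38.5 and 181 FPKM in DKO and 128 and 30.0 FPKM in WT, and dermal papilla markers, all 7 with a negative difference, to 15.1 and 34.2 FPKM in DKO and 56.7 and 24.5 FPKM in WT. The part of these cell types in the difference of the 9 genes was not tested. Endothelial and mural markers summed to at most 8.16 FPKM, immune markers to at most 2.54 FPKM and muscle markers to at most 1.07 FPKM in any 5-aza library. Emcn and Krt20 had 0 reads in 3 of the 4 libraries with 5-aza, Tyrobp in 2, and Cd207, Lyz2, Cd3e, Atoh1 and Ckm in 1 each.

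**Figure D3:**
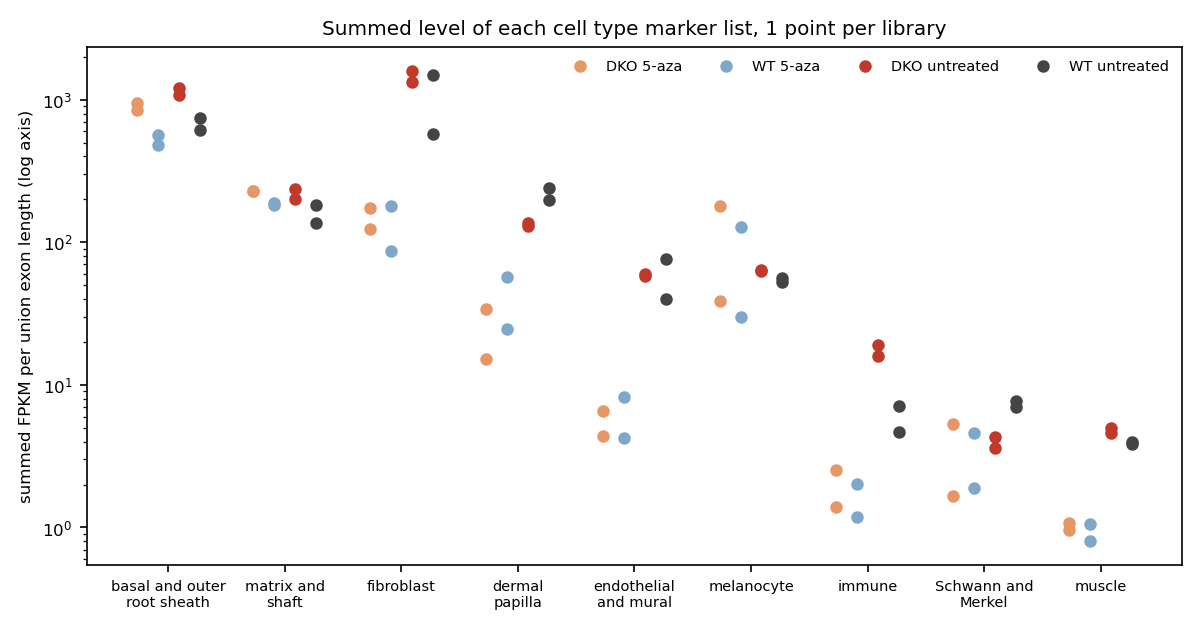
Summed FPKM per union exon length (log axis) of 9 lists of cell type markers, with 1 point per library and colours for the 4 groups. The basal and outer root sheath list is at 841 to 943 FPKM in DKO against 483 to 564 FPKM in WT after 5-aza, and at 1076 to 1217 FPKM against 611 to 741 FPKM untreated.

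Without treatment, Lama3, Lamb3 and Itga6 were higher in both DKO libraries than in both WT libraries, Dst was lower in both, and the other 5 genes overlapped. None of the 9 passed the adjusted threshold over 17339 genes (limma), nor in the authors' deposited table. The comparison asks how DKO and WT cells differ without 5-aza.

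Lama3 was at 4.44 and 5.50 FPKM in untreated DKO libraries against 3.88 and 3.04 FPKM in untreated WT libraries. The genotypes did not overlap, but the libraries of each lay further apart than after 5-aza. The means of 4.97 ± 0.750 and 3.46 ± 0.597 FPKM differed 1.44-fold, with a log2(FPKM + 1) difference of 0.42 ± 0.15 (SE; limma, adjusted p = 0.400). Lamb3 was at 1.77 and 2.62 FPKM in untreated DKO against 1.54 and 1.29 FPKM in untreated WT, 1.55-fold higher by its means. Here too DKO lay above WT in both libraries, by 0.39 ± 0.16 on the log2(FPKM + 1) scale (SE; limma, adjusted p = 0.458). Log2 fold changes in the authors' deposited table were 0.49 for Lama3 and 0.60 for Lamb3, with adjusted p of 0.211 and 0.202.

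The receptors were close to each other. Itga6 was at 5.74 and 6.11 FPKM in untreated DKO against 5.20 and 5.44 FPKM in untreated WT, without overlap and with a difference of 0.13 ± 0.09 on the log2(FPKM + 1) scale (SE; limma, adjusted p = 0.639). Itgb4 was at 3.15 and 3.86 FPKM in untreated DKO and 2.78 and 3.39 FPKM in untreated WT. Replicate 2 was the higher Itgb4 library in both genotypes, and their ranges overlapped. Itga3 was at 5.92 and 6.07 FPKM in untreated DKO and 5.18 and 6.94 FPKM in untreated WT. Itgb1 was at 21.9 and 20.5 FPKM in untreated DKO and 20.5 and 27.6 FPKM in untreated WT. For both genes of α3β1, WT replicate 2 was the highest of the 4 libraries. In the same library the fibroblast markers summed to 1496 FPKM per union exon length, against 572 FPKM in WT replicate 1 and 1602 and 1341 FPKM in the DKO libraries, and the part of fibroblasts was not tested. Without WT replicate 2 the log2(FPKM + 1) difference of Itga3 was 0.18 instead of -0.0030, and that of Itgb1 0.05 instead of -0.16.

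Of the remaining genes, Col17a1 was at 17.2 and 17.8 FPKM in untreated DKO and 15.2 and 17.3 FPKM in untreated WT. Plec was at 3.13 and 4.02 FPKM in untreated DKO and 2.98 and 3.51 FPKM in untreated WT. The ranges overlapped in both genes. Dst was at 1.38 and 1.41 FPKM in untreated DKO against 1.59 and 1.45 FPKM in untreated WT, lower in both DKO libraries by a small amount (difference -0.07 ± 0.09, SE; limma, adjusted p = 0.814).

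Over the 9 genes, both untreated DKO libraries lay above both WT libraries in 3, against 24.1% of the 17339 genes tested, and below in 1, against 19.3%. An unadjusted p under 0.05 with DKO higher was found for Lama3 alone, against 6.72% of all genes, a share near that of the background. By adjusted p, 0 of the 9 passed, where 1 gene of 17339 did (0.00577%; limma). The authors' deposited table had 0 of the 9 past its adjusted threshold, against 0.793% of its genes higher in DKO. The median difference of the 9 was 0.10 on the log2(FPKM + 1) scale, beside 0.01 over all genes. The count of 1 became 0 without WT replicate 2 or DKO replicate 2, and 2 without WT replicate 1 or DKO replicate 1. Basal and outer root sheath markers had a positive difference in 9 of 9 and did not overlap in 5, with a summed level of 1076 and 1217 FPKM per union exon length in untreated DKO against 611 and 741 FPKM in untreated WT. Dermal papilla markers, all 7 of them lower in both DKO libraries, summed to 137 and 131 FPKM in untreated DKO against 240 and 197 FPKM in untreated WT. Matrix and shaft markers summed to 201 and 237 FPKM in untreated DKO against 137 and 182 FPKM in untreated WT. Of the 7 tested, 4 were higher in both DKO libraries and 1, Mki67, was lower in both. Mki67 was at 48.0 and 43.2 FPKM in untreated DKO against 51.1 and 66.0 FPKM in untreated WT. Immune markers, all 6 with a positive difference, summed to 16.0 and 19.2 FPKM in untreated DKO against 4.65 and 7.16 FPKM in untreated WT. Melanocyte sums were 63.6 and 63.4 FPKM in untreated DKO against 52.4 and 56.0 FPKM in untreated WT, and Schwann and Merkel cell sums 3.61 and 4.33 FPKM in untreated DKO against 7.69 and 7.02 FPKM in untreated WT. Muscle marker sums were at most 4.95 FPKM. Endothelial and mural sums overlapped, at 60.2 and 57.6 FPKM in untreated DKO and 39.8 and 77.0 FPKM in untreated WT. Acta2 had the highest deposited FPKM of that list, at 52.1 and 50.9 in untreated DKO and 28.8 and 71.7 in untreated WT. Of the 7 tested, 5 were higher in both DKO libraries and 1, Pdgfrb, was lower, against 24.1% and 19.3% of all genes. The part of these cell types in the untreated values of the 9 genes was not tested.

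**Figure D4:**
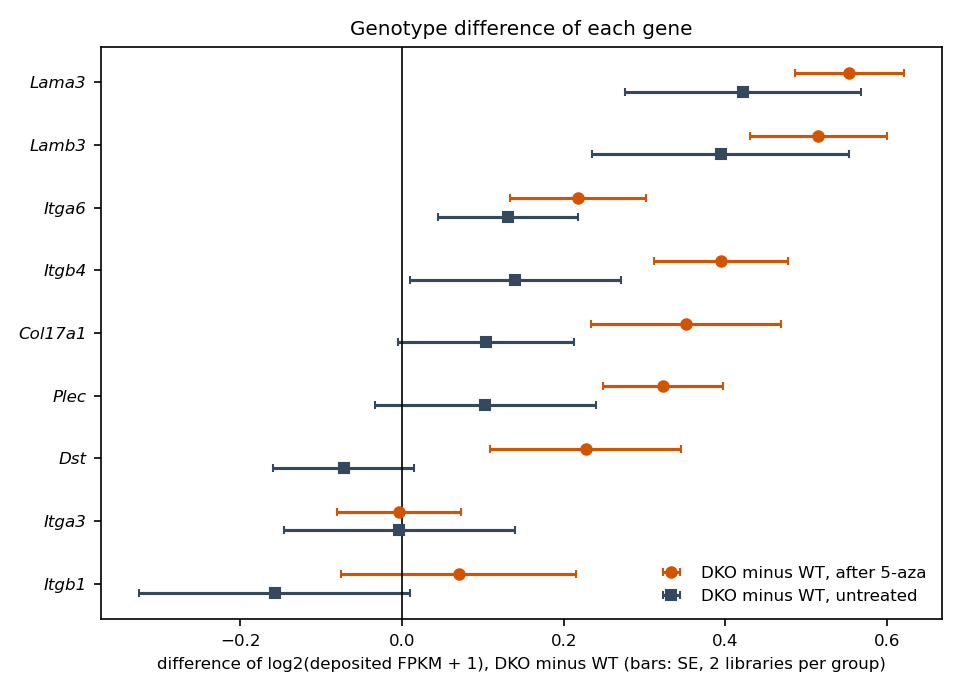
Difference of log2(deposited FPKM + 1), DKO minus WT, for each of the 9 genes after 5-aza (circles) and untreated (squares), with bars of 1 SE from limma on 2 libraries per group. On this scale Lama3 is the highest in both comparisons at 0.55 and 0.42, and Itga3 lies at -0.0035 and -0.0030. The order of the laminin genes depends on the added 1. With 0.1 added instead, Lamb3 is above Lama3, at 1.07 against 0.68 after 5-aza and 0.58 against 0.51 untreated.

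Whether the genotype difference itself differed between 5-aza and untreated libraries was tested as an interaction over 8 libraries and 18505 genes. It was positive for 8 of the 9 genes, with a median of 0.22 on the log2(FPKM + 1) scale beside 0.02 over all genes, and no gene of the 9 passed. The largest was that of Dst at 0.30 ± 0.15 (SE; limma, adjusted p = 0.867), followed by Itgb4 at 0.25 ± 0.16, Col17a1 at 0.25 ± 0.16, Itgb1 at 0.23 ± 0.24 and Plec at 0.22 ± 0.16. For the laminin chains it was 0.13 ± 0.17 for Lama3 and 0.12 ± 0.20 for Lamb3. The value of Lamb3 depends on the added 1. It was 0.49 ± 0.33 with 0.1 added instead, second to Dst at 0.56 ± 0.29, and 0.56 ± 0.33 in voom, and passed in neither. For Itga6 it was 0.09 ± 0.11 and for Itga3 -0.00047 ± 0.17. An unadjusted p under 0.05 was reached by 0 of the 9, against 3.05% of all genes in the positive and 3.04% in the negative direction, and 0.027% of all genes passed by adjusted p (5 of 18505). These tests do not show that the genotype difference was larger after 5-aza than without it, nor that it was the same.

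5-aza and untreated libraries were in separate tables, with different shares of reads in listed genes, so the treatment and the table cannot be told apart and levels are only set side by side. On deposited FPKM, 5-aza over untreated was between 0.513 and 1.04 among the 9 genes in DKO and between 0.347 and 0.9001 in WT, below 1 in 7 of the 9 in DKO and in all 9 in WT. Scaled instead to reads in the 26200 genes that both tables list, it was between 0.762 and 1.54 in DKO and between 0.529 and 1.39 in WT. On that scale it was below 1 in 2 of the 9 in DKO and in 4 in WT. The share of all genes below 1 was not computed on either scale, so these counts are not read as a trait of the 9 genes. Lamb3 and Itgb1 were below 1 on both scales in both genotypes. Lamb3 over its untreated level was 0.513 in DKO and 0.347 in WT on deposited FPKM, and 0.762 in DKO and 0.529 in WT on the shared scale. The ratio of Itgb1 was 0.578 in DKO and 0.489 in WT on deposited FPKM, and 0.858 in DKO and 0.756 in WT on the shared scale. Every other gene had a ratio above 1 on the shared scale in at least 1 genotype.

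Ratios between genes of a library do not depend on the library's scaling and were computed on union exon length. They can still differ with the library kit, the table and the mix of cells. For these ratios too, 5-aza and the table cannot be told apart, and the groups are only set side by side. Lama3 over Lamb3 was 2.89 and 2.47 in DKO 5-aza and 3.16 and 4.70 in WT 5-aza libraries, and 1.499 and 1.25 in untreated DKO and 1.51 and 1.41 in untreated WT libraries. All 4 libraries with 5-aza held more Lama3 per Lamb3 than all 4 untreated libraries, and both DKO 5-aza libraries lay below both WT 5-aza libraries. Itga3 over Itgb1 was 0.684 and 0.596 in DKO 5-aza and 0.612 and 0.745 in WT 5-aza libraries, and 0.389 and 0.426 in untreated DKO and 0.364 and 0.363 in untreated WT libraries. Again the 5-aza libraries lay above the untreated libraries. Itgb4 over Itgb1 was 0.858 and 0.744 in DKO 5-aza against 0.540 and 0.625 in WT 5-aza libraries, and 0.421 and 0.550 in untreated DKO against 0.398 and 0.360 in untreated WT libraries. That ratio of the hemidesmosomal to the common β subunit was higher in both DKO libraries than in both WT libraries of each table. Itga6 over Itgb4 was between 0.419 and 0.637 in all 8 libraries. Dst over Plec was between 0.0743 and 0.109 in the 5-aza libraries, below the 0.116 to 0.176 of the untreated libraries. These ratios were described without a test, and ratios of other gene pairs were not computed beside them.

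Libraries in which 1 of Lama3, Itga6, Itgb4, Col17a1 and Plec was high tended to be high in the others of these genes. Pearson correlations of log2(FPKM + 1), with each gene centred within its table, were taken over the 8 libraries as a description; the libraries share depth, table and genotype. Between members r was 0.98 for Itgb4 and Plec, 0.93 for Itgb4 and Col17a1, 0.90 for Itga6 and Itgb4, 0.89 for Itga6 and Plec, and 0.85 for Lama3 and Itga6. The lowest r among Lama3, Itga6, Itgb4, Col17a1 and Plec was 0.66, for Lama3 and Col17a1. Itga3 was closest to Itgb1, at 0.74, and both stood apart from Lama3, with r of -0.23 and -0.32. The spread of r over other gene pairs is not given, so these values are not read as particular to hemidesmosome genes. Among 8953 genes with a mean of at least 1 FPKM in both tables, those most like Itgb4 were Chtop (0.992), Ssu72 (0.983) and Plec (0.983). Chtop averages in DKO and WT differed 1.11-fold after 5-aza and 1.03-fold untreated. Those most like Lama3 were Trpm4 (0.987), Slc33a1 (0.985) and Pkp1 (0.985), the last encoding the desmosomal protein plakophilin 1. Pkp1 was at 20.5 and 20.1 FPKM in DKO 5-aza against 13.7 and 14.4 FPKM in WT 5-aza libraries, and at 27.8 and 35.5 FPKM in untreated DKO against 23.5 and 20.3 FPKM in untreated WT libraries. Lamb3 and Dst were under the minimum level for this description.

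A list of 57 further genes of the hemidesmosome, basement membrane and cell adhesion was set beside the 9. After 5-aza, 11 of the 57 had an unadjusted p under 0.05 with DKO higher (6.64% of all genes did) and 0 with DKO lower (2.3% of all genes), and none passed by adjusted p (limma). Their median difference was 0.06 on the log2(FPKM + 1) scale, beside 0.03 over all genes. Untreated, 6 were higher and 4 lower by unadjusted p, against 6.72% and 4.73% of all genes, with a median of 0.01, and none passed by adjusted p.

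The other hemidesmosome genes on the list, Cd151, Erbin, Krt5 and Krt14, had a median difference of 0.50 after 5-aza. All 4 were higher in both DKO 5-aza libraries, where 28% of all genes were, and 3 of them at an unadjusted p under 0.05, where 6.64% of all genes were. Untreated, Krt5 and Krt14 were higher in both DKO libraries (24.1% of all genes were), while Cd151 and Erbin overlapped, with DKO over WT ratios of 0.991 and 1.01. Krt14, the basal keratin whose promoter also drives the Cre, was at 71.1 and 95.2 FPKM in DKO 5-aza against 43.0 and 29.5 FPKM in WT 5-aza libraries, and at 175 and 209 FPKM in untreated DKO against 71.9 and 84.7 FPKM in untreated WT. Its partner Krt5 was at 330 and 363 FPKM in DKO 5-aza against 236 and 200.4 FPKM in WT 5-aza libraries, and at 544 and 578 FPKM in untreated DKO against 298 and 372 FPKM in untreated WT. Both keratins separated by genotype in each table. The adjusted p of Krt14 was 0.388 after 5-aza and 0.189 untreated (limma), and 2.36e-05 and 2.85e-21 in the authors' deposited table. The adjusted p of Krt5 was 0.449 after 5-aza and 0.557 untreated (limma), and 0.000457 and 1.90e-07 in the authors' deposited table. Krt5 and Krt14 also belong to the basal marker list.

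Other laminins went in both directions. Lama5, the α chain of the more widespread epithelial laminins, was at 34.8 and 33.1 FPKM in DKO 5-aza against 26.0 and 25.0 FPKM in WT 5-aza libraries, and at 48.8 and 53.8 FPKM in untreated DKO against 38.3 and 39.4 FPKM in untreated WT. It did not overlap in either table, with a difference of 0.40 ± 0.08 after 5-aza and 0.39 ± 0.13 untreated (SE; limma, adjusted p = 0.381 and 0.383), and adjusted p of 0.0460 and 0.0490 in the authors' deposited table. Lama2, the α chain of muscle and nerve basement membranes, was at 0.882 and 2.08 FPKM in DKO 5-aza and 2.47 and 1.11 FPKM in WT 5-aza libraries, and at 10.5 and 11.3 FPKM in untreated DKO against 17.4 and 15.9 FPKM in untreated WT. It overlapped after 5-aza and was lower in both untreated DKO libraries. Lamc3 was at 2.62 and 5.97 FPKM in DKO 5-aza and 6.10 and 2.39 FPKM in WT 5-aza libraries, and at 23.4 and 24.5 FPKM in untreated DKO against 35.2 and 29.7 FPKM in untreated WT. Both were lower in untreated DKO in the authors' deposited table too, at an adjusted p of 2.17e-05 for Lama2 and 0.0354 for Lamc3. Over the 8 other laminins, 1 was higher after 5-aza by unadjusted p and 0 lower, and 1 higher and 2 lower untreated. Of all genes, 6.64% were higher and 2.3% lower after 5-aza, and 6.72% and 4.73% untreated.

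Among 17 genes of the basement membrane, 3 were higher and 0 lower by unadjusted p after 5-aza, and 3 higher and 2 lower untreated. The shares of all genes were 6.64% and 2.3% after 5-aza, and 6.72% and 4.73% untreated. Col4a6, a collagen IV chain of epithelial basement membranes, was at 3.17 and 2.43 FPKM in DKO 5-aza against 1.56 and 1.82 FPKM in WT 5-aza libraries, and at 2.99 and 2.89 FPKM in untreated DKO against 1.64 and 1.94 FPKM in untreated WT. It separated in both tables, with a difference of 0.49 ± 0.12 after 5-aza and 0.50 ± 0.10 untreated (SE; limma, adjusted p = 0.437 and 0.224), and adjusted p of 0.0701 and 0.00988 in the authors' deposited table. Its partner Col4a5 was at 1.70 and 1.32 FPKM in DKO 5-aza against 1.25 and 1.26 FPKM in WT 5-aza libraries, and at 2.54 and 2.74 FPKM in untreated DKO against 1.84 and 1.82 FPKM in untreated WT. Nid1 (nidogen 1) was at 2.57 and 5.61 FPKM in DKO 5-aza and 6.54 and 2.32 FPKM in WT 5-aza libraries, overlapping, and at 36.2 and 33.9 FPKM in untreated DKO against 43.0 and 51.6 FPKM in untreated WT, lower in both DKO libraries. Col4a2, the α2 chain of the common collagen IV, was at 7.74 and 13.1 FPKM in DKO 5-aza and 14.6 and 7.68 FPKM in WT 5-aza libraries, and at 37.8 and 37.4 FPKM in untreated DKO and 33.6 and 47.5 FPKM in untreated WT, overlapping in both. In Col4a2, Nid1, Lama2 and Lamc3 the higher libraries after 5-aza were DKO replicate 2 and WT replicate 1, as for the marker sums of fibroblasts, dermal papilla, melanocytes, endothelial and mural cells, immune cells, and Schwann and Merkel cells, whose part was not tested.

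Of 10 other integrin genes, 2 were higher after 5-aza by unadjusted p and 1 untreated, with 0 lower in either. Over all genes 6.64% were higher after 5-aza and 6.72% untreated, and 2.3% and 4.73% lower. Itgb8, the subunit of the receptor αvβ8, was at 0.268 and 0.311 FPKM in DKO 5-aza against 0.133 and 0.109 FPKM in WT 5-aza libraries, and at 0.477 and 0.620 FPKM in untreated DKO against 0.345 and 0.202 FPKM in untreated WT. It separated in both tables, with limma adjusted p of 0.353 and 0.343, and in the authors' deposited table the adjusted p were 0.0253 and 0.268. Itgb5 was at 5.86 and 6.66 FPKM in DKO 5-aza and 6.34 and 5.25 FPKM in WT 5-aza libraries, and at 13.0 and 14.0 FPKM in untreated DKO against 10.1 and 12.7 FPKM in untreated WT. Itga9 was at 1.28 and 2.73 FPKM in DKO 5-aza and 3.02 and 1.27 FPKM in WT 5-aza libraries, and at 9.09 and 8.59 FPKM in untreated DKO and 8.88 and 7.56 FPKM in untreated WT, overlapping in both.

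Focal adhesions are the contacts in which β1 integrins join actin. Of 12 of their genes, 2 were higher after 5-aza and 0 untreated by unadjusted p, and 0 were lower in either. Among all genes 6.64% were higher after 5-aza and 6.72% untreated, and 2.3% and 4.73% lower. Vcl (vinculin) was at 6.90 and 6.11 FPKM in DKO 5-aza against 5.20 and 5.07 FPKM in WT 5-aza libraries (difference 0.29 ± 0.08, SE; limma, adjusted p = 0.457), and at 12.9 and 13.5 FPKM in untreated DKO and 10.9 and 14.7 FPKM in untreated WT. Fermt1 (kindlin 1), which helps to activate integrins, was at 5.83 and 5.14 FPKM in DKO 5-aza against 4.01 and 4.15 FPKM in WT 5-aza libraries (difference 0.35 ± 0.08, SE; limma, adjusted p = 0.413), and at 6.19 and 5.87 FPKM in untreated DKO against 4.85 and 5.77 FPKM in untreated WT. Its libraries did not overlap in either table, and its adjusted p after 5-aza was 0.372 in the authors' deposited table. Tln1 (talin 1) was at 14.1 and 12.9 FPKM in DKO 5-aza and 13.1 and 11.4 FPKM in WT 5-aza libraries, and at 21.4 and 21.2 FPKM in untreated DKO and 20.2 and 24.7 FPKM in untreated WT, overlapping in both. Of 6 proteases that process laminin or shed collagen XVII and other adhesion proteins, 0 had an unadjusted p under 0.05 in either table. Adam10 was at 8.87 and 9.04 FPKM in DKO 5-aza against 8.08 and 7.53 FPKM in WT 5-aza libraries, and at 12.9 and 12.7 FPKM in untreated DKO and 10.6 and 12.9 FPKM in untreated WT. Mmp14 was at 7.19 and 7.90 FPKM in DKO 5-aza and 8.45 and 6.26 FPKM in WT 5-aza libraries, and at 15.7 and 13.3 FPKM in untreated DKO and 13.8 and 18.8 FPKM in untreated WT, overlapping in both.

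**Figure D5:**
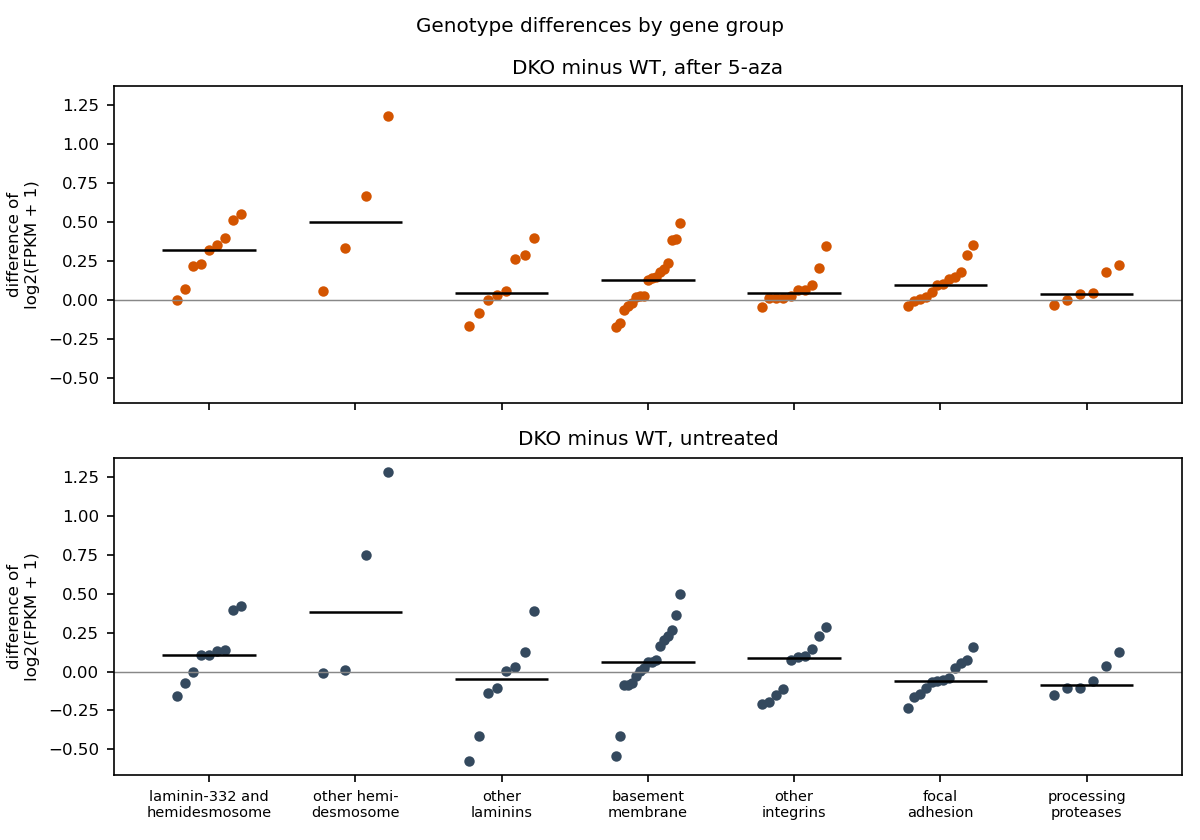
Difference of log2(deposited FPKM + 1), DKO minus WT, after 5-aza (top) and untreated (bottom), with 1 point per gene in 7 groups of genes and a black line at the median of each group. After 5-aza the medians are 0.32 for the 9 genes and 0.50 for the other hemidesmosome genes, with the remaining groups between 0.04 and 0.13.

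Some reads of 4 of the 9 genes may be shared with neighbours. By the annotation, Plec and Parp10 share 205 exon bases on the same strand. On the opposite strand, Itgb4 shares 537 bases with B230344G16Rik, Dst 1037 with Gm26788 and 456 with A930005N03Rik, and Lama3 197 with Gm29200. The strand setting of the counting is not given in the sources used here, so reads of a gene and of a partner on the opposite strand cannot be told apart there.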

How the data were processed

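Per the labels, hair matrix keratinocytes were sorted from skin and their RNA sequenced. A kit for messenger RNA and another for total RNA freed of ribosomal RNA are both named, without a group, and only the total RNA libraries are called stranded. Trim Galore, STAR, HTSeq, DESeq2, GRCm38 and mm10 are named by the submitters' processing notes, with no version. The authors deposited 1 table for each treatment. Their library columns are FPKM, which no header names: value times deposited length was a whole multiple of 1 step per library, within 0.001, for every gene. The deposited length, of unit other, equals the sum over exon records of all transcripts in GENCODE M21 for 97.5% of genes of each table. The deposited base mean is a signal value of the authors' DESeq2 test. Fold changes and their errors are log2 values per the file headers, which name no direction; set against the library columns they run as WT over DKO, and they are given here as DKO over WT. A further deposited column, the test statistic, is a score, and the p-value columns hold the authors' p and adjusted p.

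Here log2(FPKM + 1) was fitted in limma 3.58.1 (R 4.3.3), with a trend in the variance. A gene entered with 10 or more reads, at the median library size, in 2 or more libraries and 15 or more reads over all of them. Reads were recovered from FPKM and length, and library size was the sum of reads in listed genes. Tests were two-sided, with Benjamini-Hochberg adjustment over all genes of a fit, with a threshold of 0.05. The design had left the test open between counts and FPKM, and edgeR was not run. Fits were made within each table and, for the interaction, over the 8 libraries. Tables were scaled separately, so 5-aza was not tested against untreated. Alternatives were another pseudocount, no filter, other scalings, no trend, voom, a replicate block, 1 fit for all libraries, each library left out and, added after seeing the data, union exon length and crossed replicate numbers. The fit was tested on simulated data. Python 3.11.15 with pandas 2.3.3 and matplotlib 3.10.9 made tables and figures. Named genes were all 9 members, the 2 tested genes of highest mean FPKM in each group of the list of 57, the 4 of that list with the smallest p in each comparison, and the 3 genes most like Itgb4 and Lama3. Members and lists were chosen with earlier results of these data known. A gene left out of the list is not reported here.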

Additional observations from a re-analysis of the deposited data

Results flagged for a closer look

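Dst was flagged because its genotype difference had opposite directions in the tables, with no overlap in either, though by narrow margins. Of all genes tested, 28% had both DKO libraries above both WT libraries after 5-aza, and 19.3% had both below untreated. The share of genes with both was not computed, so the flag is not read as a trait of Dst. After 5-aza it was at 0.932 and 1.18 FPKM in DKO against 0.910 and 0.606 FPKM in WT libraries, and without treatment at 1.38 and 1.41 FPKM in DKO against 1.59 and 1.45 FPKM in WT libraries. The difference between these differences was 0.30 ± 0.15 on the log2(FPKM + 1) scale (SE, n = 2 libraries per group) and did not pass (limma, adjusted p = 0.867).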

How the results depend on the processing

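No member passed the adjusted threshold in any of the 3 comparisons under any alternative, and the count of members called was 0 throughout. The signs of Lama3, Lamb3, Itga6, Itgb4, Col17a1 and Dst were the same under all alternatives in both comparisons of DKO with WT. Genes called over the untreated libraries, 1 in the fit reported, were 8 with a pseudocount of 0.1, 0 with no filter, 0 with no variance trend, 77 with voom, 129 with all 8 libraries in 1 fit, 37 on union exon length and 0 without any 1 library; members with an unadjusted p under 0.05, 1 as reported, were 0 with no filter and under both other scalings, 2 with voom, in 1 fit and on union exon length, and 0 to 2 with 1 library left out. After 5-aza, 1 gene was called with all libraries in 1 fit, against 0, and members with an unadjusted p under 0.05 were 3 to 6 with 1 library left out. For the interaction, 5 genes were called as reported, 1 with a pseudocount of 0.1 and with voom, 2 with no filter, both scalings or no trend, and 0 to 11 with 1 library left out, where members with an unadjusted p under 0.05 were 0 to 2. Genes with an unadjusted interaction p under 0.05 were 564 positive and 562 negative, or 441 and 681 with FPKM scaled to reads in listed genes. No cause of these changes was tested.

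Signs turned for Itga3, Itgb1 and Plec between DKO and WT, and for Itga3, Lama3 and Lamb3 in the interaction. After 5-aza, Itgb1 was -0.013 when scaled to reads in listed genes and -0.012 in voom, against 0.07. With 1 library left out, Itga3 ranged from -0.056 to 0.049 and Itgb1 from -0.12 to 0.26 after 5-aza. Untreated, Itga3 ranged from -0.18 to 0.18, Itgb1 from -0.36 to 0.049 and Plec from -0.037 to 0.24. The interaction ranged from -0.0054 to 0.27 for Lama3, from -0.072 to 0.31 for Lamb3 and from -0.18 to 0.18 for Itga3. In these fits the lone library of a group is assumed to vary like the other groups.

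Replicate numbers are shared by the groups, but deviations of libraries with the same number correlated at only 0.03 untreated and at -0.59 after 5-aza, with 2 pairs each, so the numbers were not taken as pairs. With a replicate block 13 genes and 0 members by unadjusted p were found untreated, 0 genes after 5-aza and 0 for the interaction. With crossed numbers 57 genes were higher and 34 lower after 5-aza, 91 in all.

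The limits are 2 libraries per group, unknown animals, unnamed sort markers, a value per gene that merges isoforms, and tables scaled separately. Low genes such as Lamb3 and Dst are shrunk by the added 1.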
